A study of Homo sapiens with 40 samples.

Results

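The comparison set 7 MDV3100-resistant clones against 3 control lines of LNCaP, a human prostate cancer line that grows in response to androgen, after 24 h in 10 µM MDV3100. MDV3100, also called enzalutamide, is an antiandrogen. The 10 arrays were those whose titles carry this dose and end in replicate 2, out of 40 in the series, and no measured value entered the choice. The clones, labelled insensitive to the drug, carry the numbers 1, 9, 10, 14, 15, 19 and 24. The control lines, labelled sensitive, have the titles D+E- (control 1 here), D+R- (control 2) and M+R- (control 3), which the labels leave unexplained. All lines were seeded 3 days before treatment in the same serum-containing medium. Each clone and each control line gave 1 array, so the line was the replicate and the p-values measure the spread between these lines, and how the clones were derived is not given in the sources used here. For comparison, the same 10 lines had arrays in 0.1% DMSO, the solvent, in replicate 2, and arrays in MDV3100 in replicate 1. The labels do not say whether replicates 1 and 2 of a line are separate cultures or repeat arrays.

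Androgens act through a nuclear receptor that binds short DNA elements near its target genes and switches many of them on, among them the secreted proteases KLK3 (prostate-specific antigen) and KLK2, and lowers others. MDV3100 competes with androgen for that receptor, so in sensitive prostate cells induced genes fall and repressed genes rise. Resistant cells can regain such genes under the drug, can express other steroid-handling genes, or can change lineage and growth programmes.

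Values are the deposited linear signal of each probe set, scaled so that the trimmed mean of an array is 150, and differences are given as clones minus control lines on the log2(signal + 16) scale, which understates the change of dim genes. A gene was called where limma gave an adjusted p under 0.05 over 11853 genes. In such bulk samples, fewer expressing cells and less RNA per cell cannot be told apart.

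The arrays fell into sets that did not all follow their labels. With each gene centred on its mean over the 10 arrays, clone 1 correlated with the control lines at r = 0.48 to 0.53 and with the other 6 clones at r = -0.64 to -0.33. These are correlations across 11853 genes, which share arrays and scaling and are not independent. The array labelled clone 1 therefore went against its label. Of 1863 genes called higher in the other 6 clones, it lay nearer the control mean for 1562 (83.8%), and of 2874 called lower for 2304 (80.2%), and the clone 1 array is given apart or left out beside the results it touches. Clones 14 and 24 were almost alike (r = 0.92), with 5 genes more than 1 log2 unit apart. Clones 9 and 10 resembled each other (r = 0.66) and had r of -0.14 to 0.22 with clones 14 to 24. Control 2 lay far from the other controls for single genes, such as TMSB4X, and stood with control 3 over all genes (r = 0.67). Across replicates the lines did not match their labels. The profile of a replicate 2 array correlated with the replicate 1 array of its own label at r of -0.5 to 0.12, and none of the 10 matched its own label best. For 6 of them the best match was a line of the other group, with control 2 nearest to clone 1 of replicate 1 (r = 0.49), control 3 nearest to its clone 14 (0.34), and clones 14, 15, 19 and 24 nearest to its control 2 (0.47 to 0.59). With the DMSO array of its own label in replicate 2 a MDV3100 array correlated at 0.67 to 0.9. There 5 of 10, the 3 control lines among them, matched their own label best, and the other 5 matched another clone. Whether labels are interchanged within 1 replicate was not tested, and every difference of clones minus control lines takes the labels as deposited. The 3' to 5' signal ratio of actin, a measure of RNA integrity and labelling, was 3.02 ± 0.349 in clones and 3.57 ± 0.329 in control lines (SD, n = 7 and 3; 2-sided exact permutation p = 0.0417, smallest possible 0.00833). Clones 9 to 24 had 2.59 to 3.08, all below the control lines at 3.36 to 3.95, and clone 1, at 3.71, lay within the control range. The ratio thus divided the arrays as the expression profiles did, and its part in the results was not tested. The same ratio of GAPDH was 1.25 ± 0.0376 in clones and 1.26 ± 0.0128 in control lines (SD, n = 7 and 3; exact permutation p = 0.892). Luminal prostate transcripts were bright in all 10 arrays, with a summed signal of 14190.3 to 21310.3 over 11 markers in clones and 15043.2 to 19810.0 in control lines. No marker of immune cells passed the filter, 1 endothelial and 1 basal marker did, and none of 6 fibroblast and smooth muscle markers was called.

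**Figure D1:**
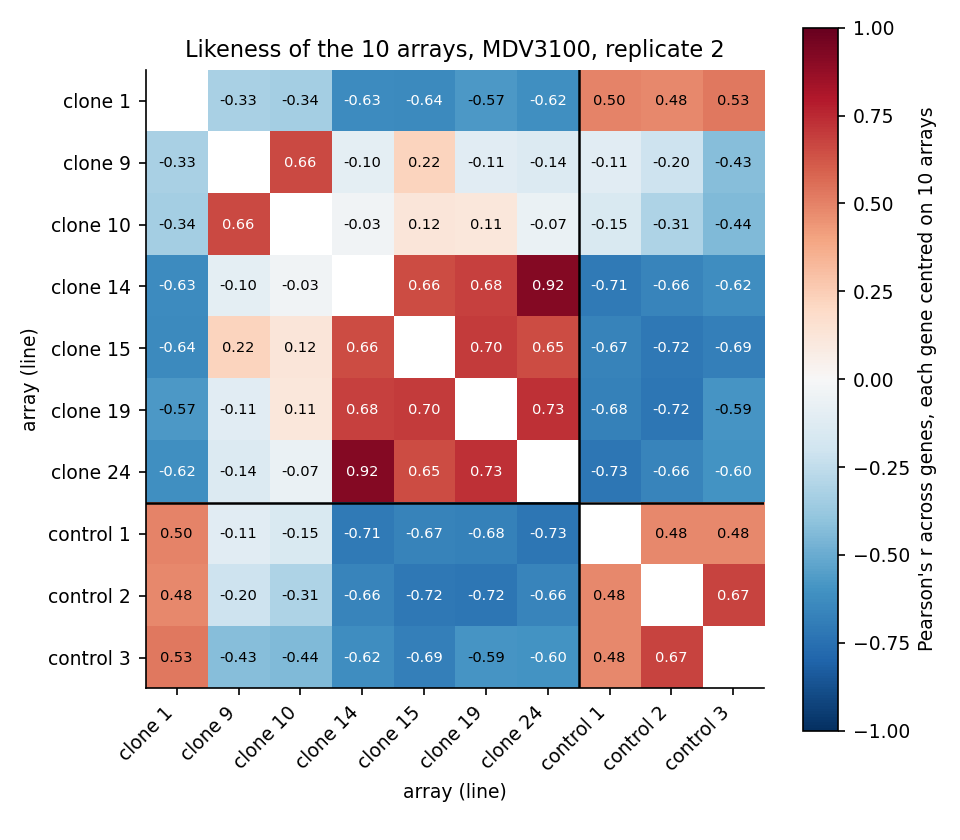
Pearson's r between the 10 arrays of MDV3100-treated lines in replicate 2, across 11853 genes, each centred on its mean over these arrays. Rows and columns are lines, clones before control lines, with lines dividing the groups. The clone 1 array is positive with the 3 control arrays (0.48 to 0.53) and negative with the other 6 clones, and clones 14 and 24 are the closest pair (0.92).

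Limma called 2326 of 11853 genes (19.6%), of which 854 (7.2%) were higher and 1472 (12.4%) lower in the clones. The median difference of all genes was -0.07. Without clone 1 it called 4737 genes (40%), 1863 higher (15.7%) and 2874 lower (24.2%). Without both clone 1 and control 2 it called 3508 (29.6%), 1374 higher (11.6%) and 2134 lower (18%). The clone 1 array was left out for its likeness to the control lines, and the fit without both was chosen with earlier results known. Calls gained in these fits are therefore not independent evidence. Over all genes control 1, not control 2, was the control least like the others (r = 0.48 with each). All 2326 genes were also called without clone 1, and 2120 of them without both. The count fell to 493 without control 1, 242 without control 2 and 47 without control 3. It was 2273, 1731, 908, 875, 978 and 981 without clone 9, 10, 14, 15, 19 and 24. With clones 14 and 24 averaged as 1 sample, a setting added after these arrays were seen to be so close, 991 genes were called (317 higher and 674 lower). Of 91 genes followed through the alternatives for replicate 2, 76 were called, and 8 of these kept their call in each of the 10 fits without 1 line, namely TRPM8, LOC105371703, SLC4A4, GXYLT2, OSMR, BEND7, COL5A2 and SALL2. The other 68 lost it without control 3, 55 without control 2 and 41 without control 1. Lines given below as alternatives, such as control 2 or 3, were left out 1 at a time. Each gene was read from its brightest probe set. Of the 91 genes, 46 had other probe sets that passed the filter, which differed from it by over 1.5 times or in direction for 31 and went the other way for 3, namely TMPRSS2, KLF5 and KLF9.

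**Figure D2:**
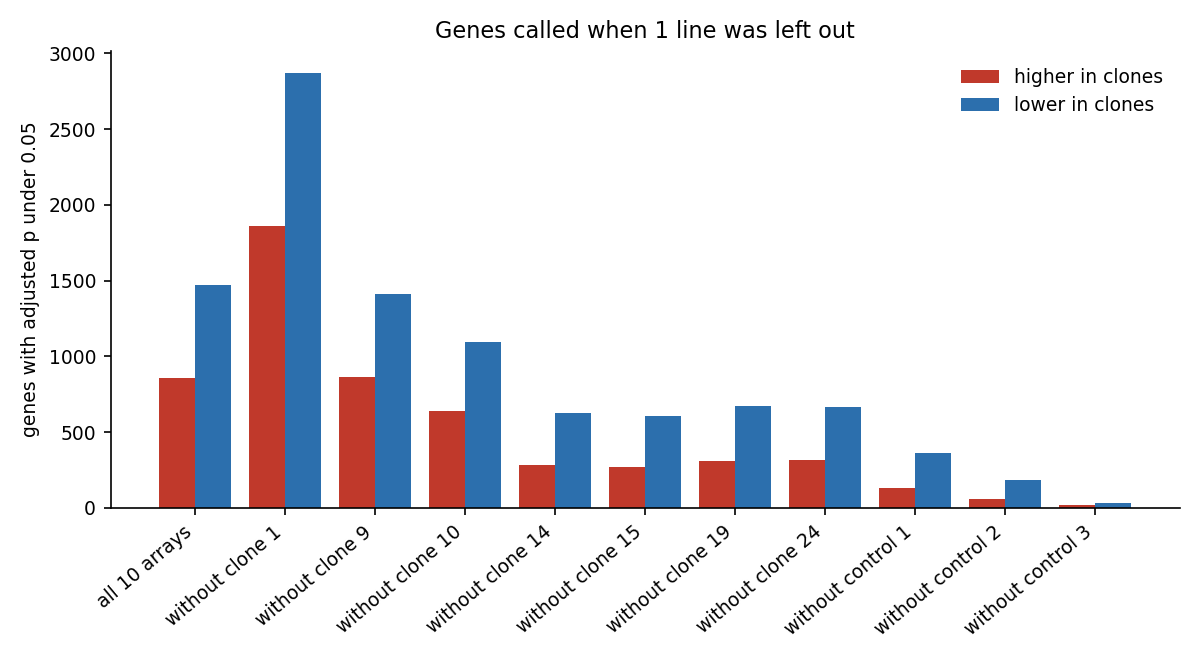
Number of genes with an adjusted p under 0.05, higher (left bars) or lower (right bars) in clones, with all 10 arrays and after leaving out each line. The count is highest without clone 1 (1863 higher and 2874 lower) and lowest without control 3 (16 and 31).

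The leading higher genes encoded an ion channel, a secreted growth factor and a transcription factor of epithelial to mesenchymal change. TRPM8, a cold-sensing calcium channel that androgen induces in prostate cells, had a lowest signal of 241, a median of 412 and a highest of 716 in clones, against 27.7, 55.2 and 29.6 in control lines 1, 2 and 3. Every clone, clone 1 included, lay above every control line. The difference was 2.96 ± 0.29 (SE; adjusted p = 0.00174, up to 0.0234 without 1 line), and 3.29 without clone 1 and control 2. In replicate 1 the TRPM8 difference had the opposite sign, -1.70, and was not called (limma adjusted p = 0.134). TGFB2, the ligand TGF-beta 2, had a signal of 4.9 in clone 1 and 108 to 355 in the other 6 clones, against 1.4, 4.5 and 2.8 in control lines. Clone 1 sat at the control level, just above the highest control. The difference was 3.24 ± 0.75 (adjusted p = 0.0221). SNAI2, a transcription factor that represses epithelial genes, had 21.5 in clone 1 and 145 to 278 in the other clones, against 5.9, 15.4 and 12.5 in control lines. Its difference was 2.64 ± 0.52 (adjusted p = 0.0171). HGD, an enzyme of tyrosine breakdown, had 208 in clone 1 and 519.9 to 1095 in the others, against 109, 137 and 104 in control lines, a difference of 2.27 ± 0.40 (adjusted p = 0.0118). TGFB2 and SNAI2 lost the call without control 1, 2 or 3 (highest adjusted p 0.0703 and 0.0606). HGD no longer passed without control 3 (highest adjusted p 0.0575).

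Several of the higher genes had 1 control array far from the other control arrays. TMSB4X, the actin-binding peptide thymosin beta 4, had a lowest signal of 1369, a median of 2033 and a highest of 2769 in clones, against 989, 39.9 and 1057 in control lines. Control 2 alone was far below all other arrays, and the difference was 2.42 with it and 1.11 without clone 1 and control 2. EFS, a docking protein of Src kinase signalling, likewise had 432 to 694 (median 589.9) in clones, against 408, 5.2 and 130.3 in control lines, a difference of 2.40 with control 2 and 1.2 without clone 1 and control 2. TUSC1 had 581 to 1138 (median 1023) in clones, against 503, 77.7 and 91.3 in control lines (difference 2.33 ± 0.46, adjusted p = 0.0172). Control 1 stood close below the lowest clone for both EFS and TUSC1. NFKBIZ, a nuclear regulator of NF-kappa-B target genes, had 40.9 in clone 1 and 158 to 379 in the other clones, against 26, 35.6 and 40.3 in control lines (difference 2.07 ± 0.47, adjusted p = 0.0215), with 0.34 in its other probe set. MINAR1 had a difference of 2.32, CWH43 2.43 and the non-coding RNA gene CCDST 2.08, and the clones lay above the control lines in all 3. The uncharacterised LOC105371703 had 116 to 259 (median 216) in clones, against 31.3, 0.4 and 3.7 in control lines, a difference of 3.11 ± 0.31 (adjusted p = 0.00174, up to 0.0234 without 1 line). The call of TMSB4X ended without control 1 or 3 or clone 9, 10, 14, 15, 19 or 24 (adjusted p up to 0.071). EFS lost the call without control 2 or 3 or clone 14, 15, 19 or 24 (highest adjusted p 0.0755). TUSC1, MINAR1 and CWH43 no longer passed without control 2 or 3 (highest adjusted p 0.0664, 0.0638 and 0.0744). The call of NFKBIZ ended without control 1, 2 or 3 (adjusted p up to 0.0714). CCDST lost the call without control 3 (highest adjusted p 0.0555).

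**Figure D3:**
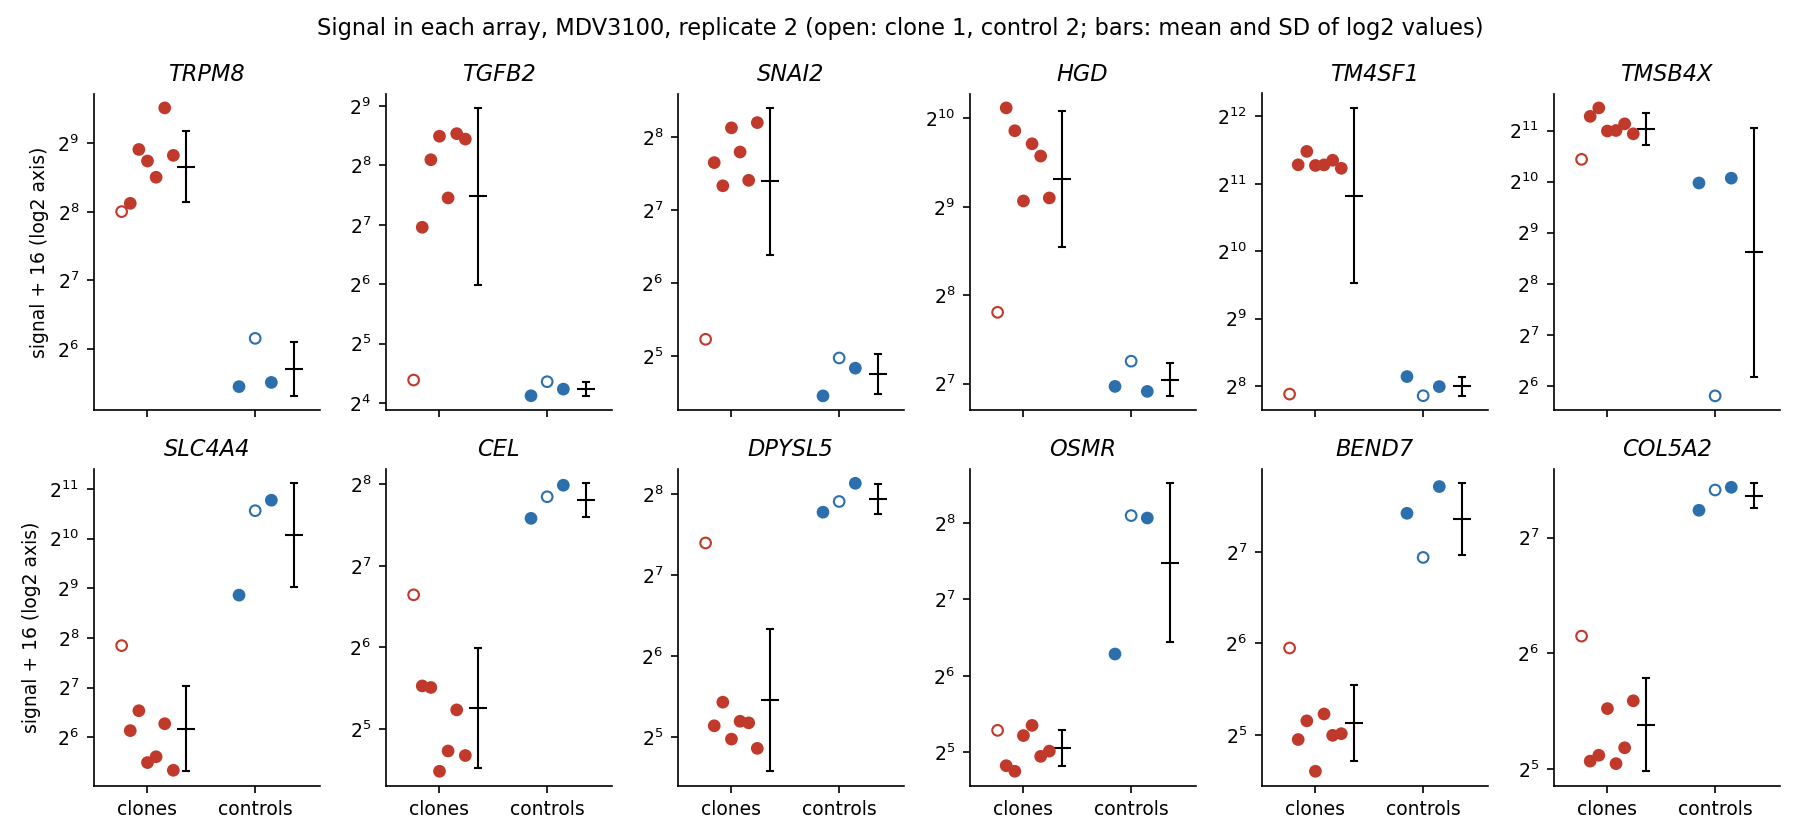
Signal plus 16 on a log2 axis in each of the 10 arrays, clones left and control lines right, for 6 genes higher (upper row) and 6 genes lower (lower row) in clones. Open points are clone 1 and control 2, and bars give the mean and SD of the log2 values of each group. Clone 1 sits at the control level for TGFB2 and TM4SF1 and between the groups for CEL and COL5A2, and control 2 alone is low for TMSB4X.

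The largest falls among genes whose groups did not overlap were in a bicarbonate transporter, a pancreatic lipase and an axon growth protein. SLC4A4, a sodium bicarbonate cotransporter, had a lowest signal of 24.5, a median of 54.4 and a highest of 214 in clones, against 449, 1493 and 1730.4 in control lines. Clone 1 was the highest clone and still lay below the lowest control line. The difference was -3.89 ± 0.53 (adjusted p = 0.00689, up to 0.0462 without 1 line), and its other probe sets gave -0.91, -3.19 and -3.65. CEL, the bile salt-activated lipase, had 84.1 in clone 1 and 6.3 to 30.1 in the other clones, against 176, 215 and 238 in control lines, a difference of -2.55 ± 0.38 (adjusted p = 0.0103). DPYSL5, a protein of axon growth, had 153 in clone 1 and 13.1 to 27.2 in the others, against 203, 224 and 265 in control lines. SCD5, a stearoyl-CoA desaturase, had 156 in clone 1 and 25.1 to 40.5 in the others, against 236, 263 and 456 in control lines. For both genes clone 1 lay far above the other clones and under the control lines, and the difference was -2.48 for DPYSL5 and -2.48 for SCD5 (adjusted p = 0.0127 and 0.0104). CEL, DPYSL5 and SCD5 no longer passed without control 3 (highest adjusted p 0.0555, 0.058 and 0.0555).

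OSMR, the receptor subunit for the cytokine oncostatin M, had 10.9 to 24.8 (median 16.3) in clones, against 62.0, 258 and 252 in control lines. Here clone 1, at 23.0, was within the range of the other clones, and the difference was -2.43 ± 0.33 (adjusted p = 0.00689). BEND7 had 8.3 to 45.8 (median 16.3) in clones, against 155, 107 and 194 in control lines (difference -2.23 ± 0.25, adjusted p = 0.00395). COL5A2, a chain of type V collagen, had 17.0 to 54.9 (median 20.3) in clones, against 135, 154 and 157 in control lines (difference -1.98 ± 0.22, adjusted p = 0.00395). The 3 control lines were within a narrow range for COL5A2, and all clones were below it. GXYLT2, which adds xylose to Notch, had a difference of -2.45 ± 0.35 (-0.80 in its other probe set), and SALL2, a zinc finger transcription factor, of -1.96 ± 0.27. Smaller falls were called for ACOX2, a peroxisomal oxidase of bile acid synthesis (-1.97), TBX5, a heart and limb transcription factor (-1.89), and APOBEC3F, a cytidine deaminase (-1.81, with -0.37 in its other probe set). ACOX2 had 0.8 to 8.5 (median 3.3) in clones, against 9.7, 189.9 and 74.5 in control lines, so control 1 was close to the clones. The call of TBX5 ended without control 3 (adjusted p up to 0.0555). APOBEC3F and ACOX2 lost the call without control 2 or 3 (highest adjusted p 0.0587 and 0.0746).

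Leaving out clone 1 and control 2 brought forward genes for which clone 1 stood among the control lines. HPGD, which inactivates prostaglandins and is induced by androgen, had 1.3 in clone 1 and 234 to 794 in the other 6 clones, against 8.3, 12.1 and 2.8 in control lines. PHLDB2, a membrane-anchored adhesion protein, had 5.8 in clone 1 and 247 to 858 in the others, against 0.3, 16.4 and 12.7 in control lines. The difference without clone 1 and control 2 was 4.36 ± 0.46 for HPGD and 4.36 ± 0.49 for PHLDB2 (adjusted p = 0.000448 and 0.000543). RGS2, which turns off G-protein signalling, differed by 4.02, THBS1, the matrix protein thrombospondin 1, by 3.84, and TCIM, a regulator of Wnt signalling, by 3.69. With all 10 arrays these 5 genes were called too, at 3.56, 3.54, 3.56, 3.38 and 3.20, with an adjusted p of 0.03, 0.0266, 0.0322, 0.0262 and 0.0261. HPGD and RGS2 no longer passed without control 1, 2 or 3 or clone 14, 15, 19 or 24 (highest adjusted p 0.0892 and 0.103). The call of PHLDB2 ended without control 1, 2 or 3 or clone 14, 15 or 19 (adjusted p up to 0.094). THBS1 and TCIM lost the call without control 1, 2 or 3 or clone 14 or 15 (highest adjusted p 0.089 and 0.0857).

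On the lower side, CBLN2, a synapse organiser, had 55.4 in clone 1 and 2.8 to 7.1 in the other clones, against 1934, 24.7 and 509.5 in control lines. Control 1 and control 3 were far above all clones, while control 2 lay under clone 1, and the difference without clone 1 and control 2 was -5.62 ± 0.37 (adjusted p = 9.02e-05), against -3.82 ± 0.89 with all arrays (adjusted p = 0.0223). DDC, which makes dopamine and serotonin, had 1947 in clone 1 and 20.9 to 235 in the others, against 1777, 513 and 1406 in control lines. CYP1A2, a drug-metabolising cytochrome P450, had 276 in clone 1 and 18.8 to 40.7 in the others, against 277, 71.9 and 367 in control lines. Neither passed with all 10 arrays (DDC -2.96, adjusted p = 0.0603; CYP1A2 -1.87, adjusted p = 0.0541). Without clone 1 and control 2 both were called, DDC at -4.13 and CYP1A2 at -2.90 (adjusted p = 0.00333 and 0.000124). For both genes clone 1 was as high as control 1, so leaving it out favours these calls, which are not independent evidence. CBLN2 no longer passed without control 1 or 3 (highest adjusted p 0.0768).

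KLK3 and KLK2 are neighbours on chromosome 19 and are shown here because both are classical androgen-responsive genes whose promoters differ in letters. The sequences are the 250 bases before the start of each gene, from RefSeq (GRCh38.p14, plus strand), at chr19:50854665-50854914 for KLK3 and chr19:50873189-50873438 for KLK2. Capitals mark the hexamer of the androgen response element, AGAACA or TGTTCT on either strand, in its exact letters.
KLK3: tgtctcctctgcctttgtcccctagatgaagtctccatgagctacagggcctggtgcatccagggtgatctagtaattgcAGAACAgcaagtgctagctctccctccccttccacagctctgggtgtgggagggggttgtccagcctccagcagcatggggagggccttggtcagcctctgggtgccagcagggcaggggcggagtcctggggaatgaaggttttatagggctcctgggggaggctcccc
KLK2: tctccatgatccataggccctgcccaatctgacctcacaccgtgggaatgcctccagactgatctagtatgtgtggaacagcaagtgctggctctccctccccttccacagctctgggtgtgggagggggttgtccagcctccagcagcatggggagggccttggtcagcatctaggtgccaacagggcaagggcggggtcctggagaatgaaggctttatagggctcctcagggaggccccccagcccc
The KLK3 window held 1 such match, 170 bases before the gene start, and the KLK2 window none. In a global alignment of the windows, 205 of 241 aligned bases were identical (85.1%), and the match of KLK3 carried 1 substitution in KLK2, A81G, counted from 1 at the 5′ end of the KLK3 window. Of 35116 promoter windows of this length, 12.4% held a match. By gene, with any of its windows, it was 3 of 28 measured androgen-induced genes with a window (10.7%) and 14.8% of 27305 genes. A match is a description of letters and shows no binding.

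Of 36 measured androgen-induced genes, 13 (36.1%) were called higher in the clones under MDV3100 and 0 lower, against 7.2% called higher over all genes. A positive difference was found for 27 members, and the median was 0.69, against -0.07 over all genes. Without clone 1 and control 2, 23 members were called higher and 1 lower, with a median of 0.98. In that fit 11.6% of all genes were called higher and 18% lower. Several members were put on the list with earlier results of these lines known, so their direction is not independent evidence. The lists in the paragraphs below were also chosen with earlier results known, and the same limit holds for their shares. Averaged over the list, with each gene centred on the 10 arrays, the 6 clones 9 to 24 had log2 levels of 0.28 to 0.432, against -0.883 in control 1, -0.243 in control 2 and -0.641 in control 3. Clone 1, at -0.37, lay within the control range.

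KLK3 had a lowest signal of 2791, a median of 3710.2 and a highest of 4128 in clones, against 2769, 1567 and 1028 in control lines. All clones were above all control lines, though control 1 came close below the lowest clone, and the difference was 1.09 ± 0.25 (adjusted p = 0.0213). KLK2 had 2081 to 3412 (median 2709) in clones, against 397, 2511 and 1190.5 in control lines. Control 2 reached the middle of the clones for KLK2, and the difference of 1.26 ± 0.41 missed the threshold (adjusted p = 0.0515) but passed without clone 1 and control 2 (1.93 ± 0.35, adjusted p = 0.0043). That fit leaves out the control line that overlapped the clones. TM4SF1, a membrane glycoprotein of cell migration, had 220.0 in clone 1 and 2388 to 2844 in the other clones, against 267, 216 and 239 in control lines. The 6 clones lay close together and far above the 4 other arrays, with a difference of 2.83 ± 0.65 (adjusted p = 0.0221) and 3.25 ± 0.12 without clone 1 and control 2 (adjusted p = 2.45e-06). ST6GALNAC1, a sialyltransferase of mucin glycans, had 5.3 in clone 1 and 137 to 314 in the others, against 14.0, 6.2 and 9.6 in control lines (difference 2.63 ± 0.68, adjusted p = 0.0277). ADH1C, an alcohol dehydrogenase, had 13.3 to 258 (median 63.7) in clones, highest in clones 14 and 24, against 5.6, 13.2 and 9.6 in control lines (difference 1.97 ± 0.57, adjusted p = 0.0374). SLC45A3, a prostate sugar transporter, had 921 to 1143 (median 1045) in clones, against 259, 960.3 and 432 in control lines (difference 1.10 ± 0.29, adjusted p = 0.0282). Control 2 lay within the clones for SLC45A3. WWTR1, the Hippo pathway coactivator TAZ, had 6.6 in clone 1 and 43.5 to 86.4 in the others, against 14.6, 11.1 and 8.4 in control lines (difference 1.31 ± 0.38, adjusted p = 0.0383). The call of KLK3 ended without control 2 or 3 (adjusted p up to 0.0742). TM4SF1 lost the call without control 1, 2 or 3 (highest adjusted p 0.0748). ST6GALNAC1 and ADH1C no longer passed without control 1, 2 or 3 or clone 14, 15, 19 or 24 (highest adjusted p 0.0923 and 0.119). The call of SLC45A3 ended without control 1 or 3 or clone 14, 15 or 24 (adjusted p up to 0.104). WWTR1 lost the call without any line but clone 1 (highest adjusted p 0.106).

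FKBP5 and TMPRSS2, both androgen-induced, were not called with all 10 arrays. FKBP5, a chaperone partner of steroid receptors, had 1537 in clone 1 and 2732 to 3452 in the other clones, against 1403, 2093 and 1739 in control lines. Its difference of 0.67 ± 0.23 missed the threshold (adjusted p = 0.0551) and was called at 0.95 without clone 1 and control 2 (adjusted p = 0.00149). Its other passing probe sets gave larger differences, 1.38 and 1.58. TMPRSS2, a membrane protease, had 1208 to 2575 (median 1636) in clones, against 1006, 3352 and 1876 in control lines, so the groups overlapped, and the difference was -0.04 ± 0.35 (adjusted p = 0.95). The 9 members with a negative difference were KLK4, TMPRSS2, STEAP1, STEAP2, TSC22D3, ZBTB16, PLPP1, SLC2A12 and BCHE, from -0.62 to -0.04, and none was called.

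Of 14 measured androgen-repressed genes, 6 (42.9%) were called lower in the clones and 1 (7.14%) higher, with a median of -1.08, against 12.4% called lower and 7.2% higher over all genes. This list too was chosen with earlier results of these data known, so its direction is not independent evidence. Averaged over the list, clones 9 to 24 had centred log2 levels of -0.673 to -0.064, against 1.038, -0.032 and 0.749 in control lines 1, 2 and 3, and clone 1 had 0.683. MID1, a microtubule-bound ubiquitin ligase, had 38.6 to 303 (median 65.5) in clones, highest in clone 1, against 164, 642 and 1111 in control lines (difference -2.46 ± 0.58, adjusted p = 0.0227; -2.49 and -0.32 in its other probe sets). DAPK1, a death-associated kinase, had 57.0 to 582 (median 113) in clones, again highest in clone 1, against 370.3, 994 and 882 in control lines (difference -2.23 ± 0.58, adjusted p = 0.028). The groups overlapped in both through clone 1 alone. OPRK1, the kappa opioid receptor, had 8.3 to 42.2 (median 12) in clones, highest in clone 24, against 274, 75.8 and 33.5 in control lines (difference -1.74 ± 0.46, adjusted p = 0.0286). BCL2, which blocks apoptosis, had 87.6 in clone 1 and 16.5 to 33.6 in the others, against 95.2, 91.0 and 100.1 in control lines (difference -1.34 ± 0.31, adjusted p = 0.0221; -0.22 in its other probe set). ABCG2, a drug efflux pump, had 12.4 to 77.1 (median 20.5) in clones, against 91.1, 44.4 and 104 in control lines, and its -1.02 missed the threshold (adjusted p = 0.0709). MID1 no longer passed without control 2 or 3 (highest adjusted p 0.0861). The call of DAPK1 ended without control 2 or 3 or clone 14 or 19 (adjusted p up to 0.101). OPRK1 lost the call without control 1, 2 or 3 or clone 15 or 19 (highest adjusted p 0.0992). BCL2 no longer passed without control 1, 2 or 3 (highest adjusted p 0.0721).

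**Figure D4:**
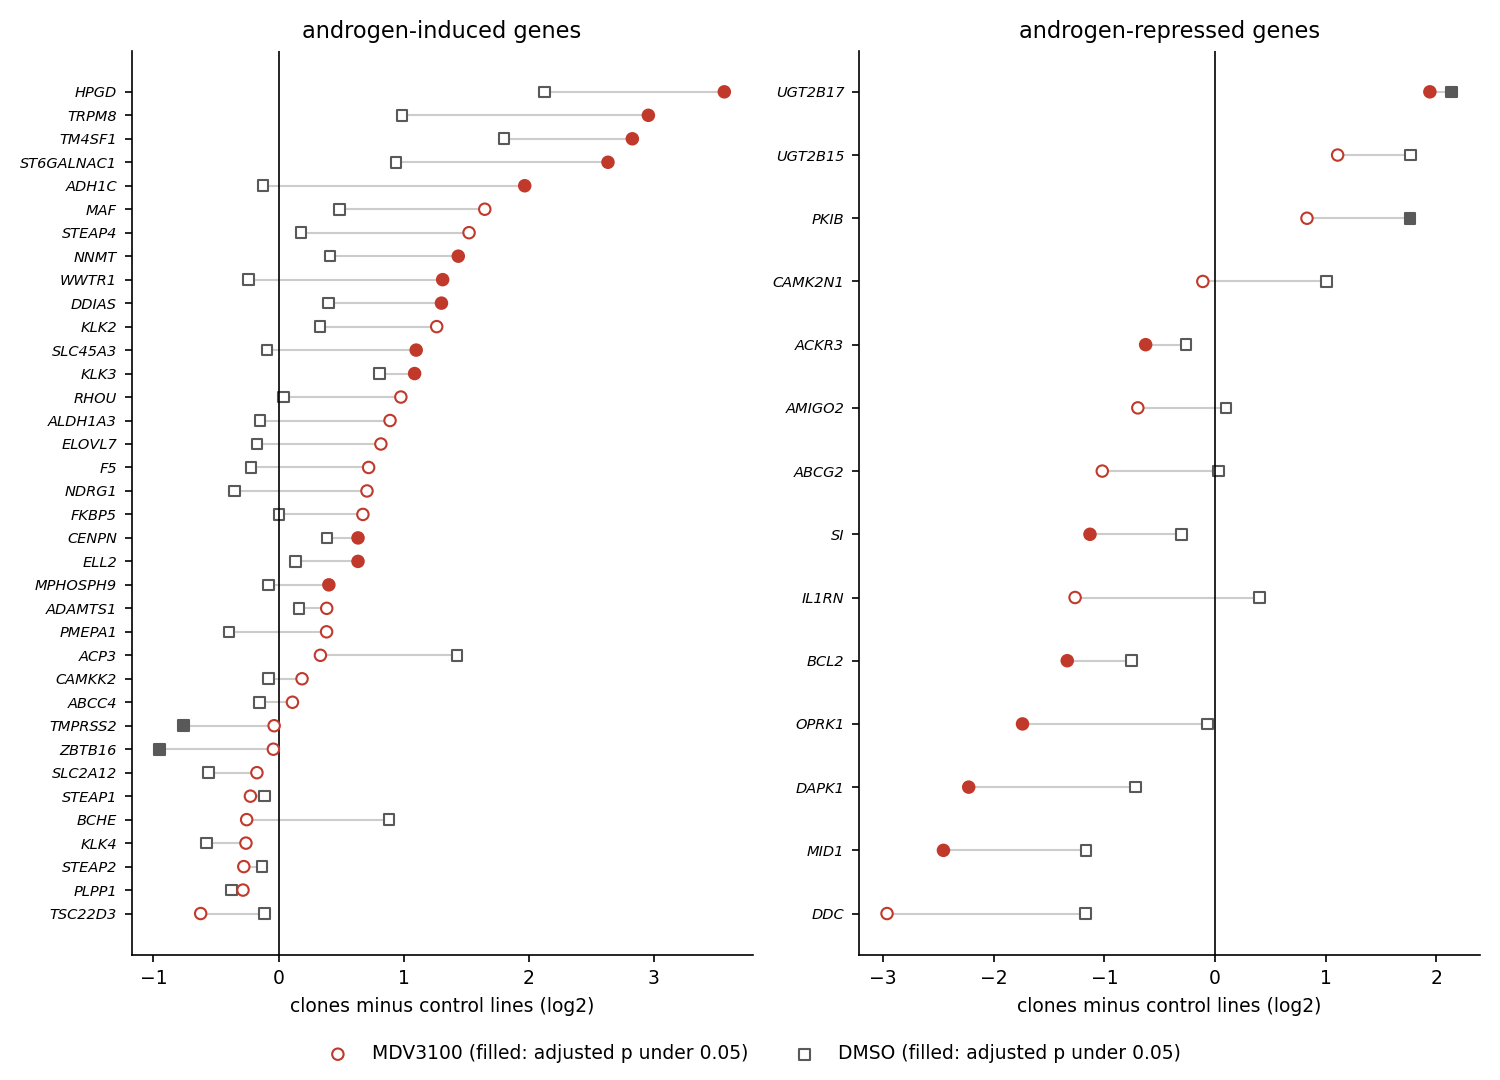
Differences of clones minus control lines (log2) for the 36 measured androgen-induced genes (left panel) and 14 androgen-repressed genes (right panel), with circles for MDV3100 and squares for DMSO, both in replicate 2. Filled symbols have an adjusted p under 0.05. The circles of 31 induced genes lie right of their squares, and those of all 14 repressed genes lie left of them. Both lists were chosen with earlier results of these data known.

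The androgen-repressed member called higher was UGT2B17, a UDP-glucuronosyltransferase that inactivates androgens, as do its relatives UGT2B15 and UGT2B28. UGT2B17 had 800.0 to 1444 (median 1349) in clones, against 908, 73.3 and 381 in control lines. Control 1 was within the clones and control 2 lowest, and the difference was 1.94 ± 0.52 with all arrays (adjusted p = 0.0306), and 0.99 without clone 1 and control 2 (adjusted p = 0.041). UGT2B28 had 104 in clone 1 and 1499.7 to 2509 in the other clones, against 469, 38.1 and 209 in control lines (difference 2.96 ± 0.92, adjusted p = 0.0452). UGT2B15 had 831 to 1588 (median 1550.1) in clones, against 2141, 186 and 629 in control lines, with control 1 above all clones, and its 1.11 was not called (adjusted p = 0.138). These 3 genes are close copies of each other, so their probe sets may share signal. Of 12 measured steroid enzymes, UGT2B17 and UGT2B28 (16.7%) were called higher and 0 lower, against 7.2% called higher over all genes, with a median of 0.05. The call of UGT2B17 ended without control 2 or 3 or clone 14, 15, 19 or 24 (adjusted p up to 0.0788). UGT2B28 lost the call without any line but clone 1 (highest adjusted p 0.181).

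ETV1, an ETS transcription factor that is rearranged and overexpressed in LNCaP, had a lowest signal of 702, a median of 1188 and a highest of 1448 in clones, lowest in clone 1, against 1119.9, 1.0 and 13.8 in control lines. Control 1 was at the level of the clones and the other control lines at the bottom of the scale. The difference of 3.78 ± 0.96 was called with all arrays (adjusted p = 0.0265) and not without clone 1 and control 2 (2.75, adjusted p = 0.0619), and its other probe sets gave 1.12 to 2.51. Among other lineage factors, CREB3L4, an androgen-regulated factor of the secretory pathway, was called higher (0.79, adjusted p = 0.0375), as was KLF5 (0.82, adjusted p = 0.0459), for which 1 of 2 probe sets went the other way. SOX9 and LEF1, which act in prostate development and Wnt signalling, were not called (0.95 and 0.70, adjusted p = 0.145 and 0.156). SOX9 had 206 in clone 1 and 787 to 1037 in the others, against 633, 218 and 399.5 in control lines. CREB3L4 no longer passed without control 1, 2 or 3 or clone 10, 14, 15, 19 or 24 (highest adjusted p 0.13). The call of KLF5 ended without control 1, 2 or 3 or clone 14, 15, 19 or 24 (adjusted p up to 0.173). ETV1 lost the call without control 2 or 3 or clone 15 or 19 (highest adjusted p 0.106).

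Of 22 measured genes of DNA replication, 3 (13.6%) were called higher in the clones and 0 lower, against 7.2% higher over all genes, 18 had a positive difference, and the median was 0.40. Of 25 mitosis genes, 1 (4%) was called higher and 1 lower, shares below those over all genes (7.2% and 12.4%), with a median of 0.25. The members with the largest differences, CCNE2 in the replication list (0.88) and NEK2 in the mitosis list (1.29), were not called. Without clone 1 and control 2 each list had 11 members called higher, with medians of 0.58 and 0.38, against 11.6% called higher over all genes. RFC4, a subunit of the clamp loader, had 758 in clone 1 and 1222 to 1481 in the other clones, against 550.2, 947 and 675 in control lines (difference 0.83 ± 0.22, adjusted p = 0.0294). POLE2, a subunit of DNA polymerase epsilon, had 199 in clone 1 and 462 to 546 in the others, against 221, 298 and 195 in control lines (difference 0.85 ± 0.27, adjusted p = 0.0468). TTK, a kinase of the spindle checkpoint, had 96.1 to 289.7 (median 277) in clones, against 72.4, 124 and 116 in control lines (difference 0.96 ± 0.31, adjusted p = 0.0489). MKI67, the Ki-67 antigen of cycling cells, went the other way, with 146 to 353 (median 195) in clones, against 356, 441 and 317 in control lines (difference -0.72 ± 0.23, adjusted p = 0.0499, and 0.0991 without clone 1 and control 2). Its other probe sets gave smaller differences, -0.32, -0.34 and -0.04. CCND1, cyclin D1, was lower (-0.69, adjusted p = 0.0371) and CDKN2B, an inhibitor of its kinases, higher (1.09, adjusted p = 0.0281). RFC4 and CCND1 no longer passed without control 1, 2 or 3 or clone 14, 15, 19 or 24 (highest adjusted p 0.121 and 0.125). POLE2 and TTK lost the call without any line but clone 1 (highest adjusted p 0.142 and 0.188). MKI67 lost the call without control 1, 2 or 3 or clone 10, 14, 15, 19 or 24 (highest adjusted p 0.173). CDKN2B no longer passed without control 1, 2 or 3 or clone 14, 15 or 24 (highest adjusted p 0.104).

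Most measured genes of epithelial to mesenchymal change, 7 of 8, had a positive difference. Of the 8, SNAI2, NNMT, FN1 and S100A4 were called higher (50%, against 7.2% over all genes) and ITGA5 lower (12.5%, against 12.4%), with a median of 0.93. The list was chosen with earlier results of these data known, so these shares are not independent evidence. VIM, the intermediate filament of mesenchymal cells, had 26.2 in clone 1 and 395 to 695 in the other 6 clones, against 47.5, 64.4 and 99.4 in control lines. It was not called with all arrays (2.18 ± 0.72, adjusted p = 0.0535) and was at 2.67 ± 0.25 without clone 1 and control 2 (adjusted p = 0.00036). FN1, fibronectin, had 1779 to 2838 (median 2277) in clones, against 1654, 849.5 and 744 in control lines, with no overlap (difference 1.12 ± 0.22, adjusted p = 0.0181). NNMT, which methylates nicotinamide, had 101 to 228 (median 181) in clones, against 18.4, 96.5 and 57.6 in control lines (difference 1.44 ± 0.34, adjusted p = 0.023). CDH1, the epithelial cadherin, had 1552 to 3722 (median 2608) in clones, lowest in clones 14 and 24, against 4188, 4115 and 3541 in control lines, and was not called (-0.66, adjusted p = 0.0886). Of 20 luminal keratin and junction genes, 3 (15%, near the 12.4% over all genes) were called lower, among them SPINT1, a protease inhibitor (-0.91, and -0.21 in its other probe set), and 1 (5%, against 7.2%) higher, KRT19, a keratin (1.10, and 0.09 in its other probe set). Of 11 collagen and matrix genes, 4 (36.4%) were called lower, among them COL6A1 (-0.97, and -0.86 to -0.19 in its other probe sets), and 1 (9.09%) higher, THBS1. The call of FN1 and COL6A1 ended without control 2 or 3 (adjusted p up to 0.069 and 0.0771). NNMT lost the call without control 1 or 3 (highest adjusted p 0.0832). SPINT1 no longer passed without control 1, 2 or 3 or clone 14, 15, 19 or 24 (highest adjusted p 0.104). The call of KRT19 ended without control 1, 2 or 3 or clone 10, 15 or 19 (adjusted p up to 0.131). S100A4 was called in 2 of the 10 fits without 1 line, and ITGA5 only without clone 1.

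The called members of the growth receptor, Wnt and ABC transporter lists were all lower. Of 20 measured genes of ERBB, FGF and IGF signalling, 4 (20%) were called lower and 0 higher, against 12.4% and 7.2% over all genes. A positive difference was found for 8 of the 20, the largest 1.04 for the receptor gene FGFR3, which was not called. ERBB2, the HER2 receptor, had 612 in clone 1 and 192 to 312 in the other clones, against 698, 631 and 636 in control lines (difference -1.24 ± 0.29, adjusted p = 0.0226). Of 12 Wnt genes, 2 (16.7%, near that background) were called lower and 0 higher, and TCF7L2, the DNA-binding partner of beta-catenin, had 516 in clone 1 and 141 to 209.7 in the others, against 822, 645 and 767 in control lines (difference -1.76 ± 0.31, adjusted p = 0.0118). ABCA3, a lipid transporter, was the 1 of 10 ABC transporters called (10%, no more than over all genes), with 70.0 to 349 (median 115) in clones, against 466, 439 and 416 in control lines (difference -1.69 ± 0.37, adjusted p = 0.0204). Clone 1 was the highest clone for all 3 genes and lay below the lowest control line. ERBB2 and ABCA3 lost the call without control 1, 2 or 3 (highest adjusted p 0.074 and 0.0699). TCF7L2 no longer passed without control 3 (highest adjusted p 0.0575).

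Neuronal and cell-surface genes were mixed. Of 10 neuronal genes, 3 (30%) were called higher and 1 (10%) lower, against 7.2% and 12.4% over all genes. This list too was chosen with earlier results of these data known, so its share is not independent evidence. CNTNAP2, a neuronal adhesion protein, had 118 to 598 (median 227) in clones, against 95.9, 55.5 and 60.8 in control lines (difference 1.63 ± 0.43, adjusted p = 0.029). GRIN3A, a glutamate receptor subunit, had 350.5 to 1499 (median 659) in clones, with clone 1 highest, against 42.2, 454 and 251 in control lines (difference 1.86 ± 0.60, adjusted p = 0.0491). The called fall was CSMD1, a complement-regulating membrane protein, at -1.68 ± 0.40 (adjusted p = 0.0232; -0.97 to -0.03 in its other probe sets), with clone 1 at 569.6 and the other clones at 106 to 164, against 503, 504 and 658 in control lines. In the probe sets used, the difference was negative for all 9 measured prostate surface antigens (median -0.23). Over all genes, 5192 of 11853 were positive. TMEFF2, a member of this list, had -0.31 in the probe set used but 1.00 and 1.22 in its other passing probe sets. Of the 9, 2 (22.2%, against 12.4% over all genes) were called lower, among them FOLH1, the prostate-specific membrane antigen (-0.46, adjusted p = 0.0225). FOLH1 had 859 to 1049 (median 977) in clones, against 1229.6, 1416 and 1393 in control lines, with no overlap. The call of CNTNAP2 ended without control 1, 2 or 3 or clone 14, 15 or 24 (adjusted p up to 0.098). GRIN3A lost the call without any line but clone 1 (highest adjusted p 0.215). CSMD1 no longer passed without control 1, 2 or 3 (highest adjusted p 0.0802). The call of FOLH1 ended without control 2 or 3 (adjusted p up to 0.0847).

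In the interferon, hypoxia, unfolded protein and lipid lists the share called in either direction was 16.7% to 20%, near the 19.6% over all genes. Of 12 p53 target and stress genes, 3 (25%) were called, 2 higher and 1 lower. Of 23 interferon and antigen presentation genes, 3 were called higher and 1 lower. B2M, the light chain of MHC class I, had 1847 in clone 1 and 2782 to 3099 in the other clones, against 1723, 1651 and 1869 in control lines (difference 0.66 ± 0.16, adjusted p = 0.0235). PSMB8, a subunit of the immunoproteasome, had 5.7 in clone 1 and 29.7 to 119 in the others, against 6.3, 7.8 and 5.3 in control lines (difference 1.62 ± 0.48, adjusted p = 0.0403). Of 18 glycolysis and hypoxia genes, 2 were higher, ANKRD37 (1.46 ± 0.25, adjusted p = 0.0113) and BNIP3, a mitophagy receptor (0.43, adjusted p = 0.0379), and 1 lower, EGLN3, an oxygen-sensing hydroxylase (-0.87 ± 0.14, adjusted p = 0.0104). All 3 are known as hypoxia-induced genes. The other passing probe set of BNIP3 went the other way, at -0.25. Of 20 genes of the unfolded protein and amino acid stress responses, 2 were higher, DNAJB9, an endoplasmic reticulum chaperone (1.03, adjusted p = 0.0221), and ATF3, a stress-induced transcription factor (0.71, adjusted p = 0.0401). The 2 lower were SESN2 and DDIT4, stress-induced inhibitors of growth signalling (-1.0 and -0.71, adjusted p = 0.0427 and 0.0352). Of 17 cholesterol and fatty acid genes, 3 were lower, among them SREBF1, their regulator (-0.89), and DHCR7, the last enzyme of cholesterol synthesis (-0.80). Of 13 glucocorticoid-induced genes, 4 (30.8%, against 7.2% over all genes) were higher, among them ERRFI1, a feedback inhibitor of EGF receptor (0.83 ± 0.16), and 1 lower, KLF9 (-0.65 ± 0.17, and 0.05 and -0.26 in its other probe sets). B2M and DNAJB9 lost the call without control 1, 2 or 3 (highest adjusted p 0.0857 and 0.0868). PSMB8 lost the call without any line but clone 1 (highest adjusted p 0.113). The call of ANKRD37 and EGLN3 ended without control 3 (adjusted p up to 0.0555 and 0.0555). SESN2 lost the call without control 1, 2 or 3 or clone 10, 14, 15, 19 or 24 (highest adjusted p 0.155). SREBF1 no longer passed without control 1, 2 or 3 or clone 24 (highest adjusted p 0.0905). The call of DHCR7 and KLF9 ended without control 1, 2 or 3 or clone 14, 15, 19 or 24 (adjusted p up to 0.126 and 0.0998). ERRFI1 lost the call without control 2 or 3 (highest adjusted p 0.0611). BNIP3 and DDIT4 were called in 2 and 3 of the 10 fits without 1 line, and ATF3 only without clone 1.

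The same 10 lines after 24 h in DMSO gave the difference without the drug. There 1221 genes were called (10.3%), 465 higher (3.92%) and 756 lower (6.38%) in clones. Of the 2326 genes called under MDV3100, 2300 had the same direction in DMSO and 918 were called in both, 39.5% of the first list and 75.2% of the DMSO list. The MDV3100 and DMSO arrays are of the same lines. SLC4A4 differed by -3.89 in MDV3100 and -3.45 in DMSO, CEL by -2.55 and -2.36, OSMR by -2.43 and -2.25, and ETV1 by 3.78 and 4.12, all called in both. Of the 36 androgen-induced genes, 0 were called higher and 2 lower in DMSO, TMPRSS2 (-0.76) and ZBTB16 (-0.95), with a median of -0.08. Androgen-repressed genes had a median of -0.02 in DMSO, with 2 of 14 called higher, UGT2B17 and PKIB, a protein kinase A inhibitor (1.76, adjusted p = 0.0497), and 0 lower. ADH1C differed by 1.97 in MDV3100 and -0.12 in DMSO, WWTR1 by 1.31 and -0.24, SLC45A3 by 1.10 and -0.09, and OPRK1 by -1.74 and -0.07. Other members had a gap of the same direction in DMSO too. HPGD differed by 3.56 in MDV3100 and 2.13 in DMSO (adjusted p in DMSO = 0.0849), TM4SF1 by 2.83 and 1.80 (0.0536), KLK3 by 1.09 and 0.81 (0.0531), and UGT2B17 by 1.94 and 2.14 (0.0403). The DMSO count was 2 without control 2, 8 without control 3, 186 to 250 without clone 14, 15, 19 or 24, 717 without clone 10, 3877 without clone 1, and 2205 (18.6%) without clone 1 and control 2.

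The difference of responses, MDV3100 minus DMSO within each line, tests whether the gap between clones and control lines depended on the drug. With all 10 lines limma called 0 genes (0%), with 1306 (11%) at an unadjusted p under 0.05. It called 88 (0.742%) without clone 1, 28 without control 2 and 142 (1.2%), 73 higher and 69 lower, without both. The largest positive differences among androgen-induced genes were 2.09 ± 0.54 for ADH1C, 1.97 ± 0.45 for TRPM8, 1.70 ± 0.33 for ST6GALNAC1 and 1.55 ± 0.30 for WWTR1, each with an adjusted p of 0.118 to 0.169. Among androgen-repressed genes the largest negative ones were -1.80 ± 0.30 for DDC, -1.67 ± 0.47 for OPRK1 and -1.66 ± 0.55 for IL1RN, an inhibitor of interleukin 1 (adjusted p = 0.116, 0.191 and 0.27). In the induced list 31 of 36 members had a positive difference of responses (median 0.84). In the repressed list 14 of 14 had a negative one (median -0.99), against 5402 positive of 11853 and a median of -0.02 over all genes. Both lists were chosen with earlier results of these data known, so these directions are not independent evidence. TRPM8 signals are an example from the induced list. In MDV3100 they were 241 to 716 (median 412) in clones, against 27.7, 55.2 and 29.6 in control lines, and in DMSO 277 to 945 (median 443) in clones, against 356, 166 and 217 in control lines. KLK2 in DMSO had 2415 to 3179 (median 2857) in clones, against 2034, 2359 and 2163 in control lines, a narrow gap that was not called (difference 0.33, adjusted p = 0.0851). In the bicarbonate transporter gene SLC4A4 the difference of responses was -0.44 (adjusted p = 0.55).

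In replicate 1 of the same comparison few of these calls recurred. There 1068 genes were called (9.01%), 655 higher (5.53%) and 413 lower (3.48%). Of the 2326 genes called in replicate 2, 735 (31.6%) had the same direction in replicate 1, 36 were called in both with the same direction and 154 with opposite directions. Without clone 1 and control 2, replicate 1 called 80 genes (0.675%), 89 without control 2, 172 without control 1, and 3004 without control 3. It called 653, 514, 413 and 458 without clone 1, 10, 14 and 15. Of the 36 androgen-induced genes, 23 had a positive difference in replicate 1, 2 were called higher and 2 lower, and the median was 0.23, against 0.05 over all genes. Of the 14 androgen-repressed genes, 11 had a negative difference, 3 were called lower and 0 higher, and the median was -0.78. The 3 were OPRK1, AMIGO2, a cell adhesion protein, and PKIB (-2.90, -1.80 and -2.07), which had -1.74, -0.70 and 0.83 in replicate 2. Single genes could turn round. ETV1 in replicate 1 had 0.2 to 857 (median 10.3) in clones, against 1222, 1137 and 1312 in control lines, the reverse of the order in replicate 2 (differences 3.78 in replicate 2 and -4.75 in replicate 1). UGT2B28 in replicate 1 had 15.5 to 682 (median 264) in clones, against 709, 501 and 419.5 in control lines, with the groups overlapping (difference -1.20, adjusted p = 0.282, against 2.96 in replicate 2). KLK3 in replicate 1 had 209.5 to 4548 (median 981) in clones, against 2262, 1581 and 2803 in control lines, with the groups overlapping on both sides (difference -1.39, adjusted p = 0.23).

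The change between replicates was tested directly, as replicate 2 minus replicate 1 of each line, clones against control lines. Limma called 2811 genes (23.7%), 1048 higher and 1763 lower. The count was 1362 (11.5%) without clone 1 and control 2, 9 without control 2 alone, 911 without control 1, and 1407 to 1843 without clone 14, 15, 19 or 24. ETV1 led, with 8.53 ± 1.32 (adjusted p = 0.00662), followed by MAGEA4, a cancer-testis antigen (6.88 ± 1.07), H2AJ, a variant histone (6.6 ± 1.40), NLGN4X, a synaptic adhesion protein (6.01 ± 0.73), and EFS (5.54 ± 1.08). The largest falls were FAM110B (-5.66 ± 1.26), PTGFR, a prostaglandin receptor (-4.78 ± 1.21), SLC4A4 (-4.15 ± 0.81), SMOC2, a matrix protein (-3.89 ± 0.62), and CEL (-3.85 ± 0.57). Of the 76 called genes among the 91 followed, 23 had the same direction in replicate 1 and 53 the opposite, 4 were called in both with the same direction and 9 with opposite directions. HGD was 1 of the 4, at 2.27 in replicate 2 and 0.97 in replicate 1 (adjusted p = 0.0455). The others were GRIN3A (1.86 and 2.35), OPRK1 (-1.74 and -2.90) and PHLDB2 (3.54 and 0.88).

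**Figure D5:**
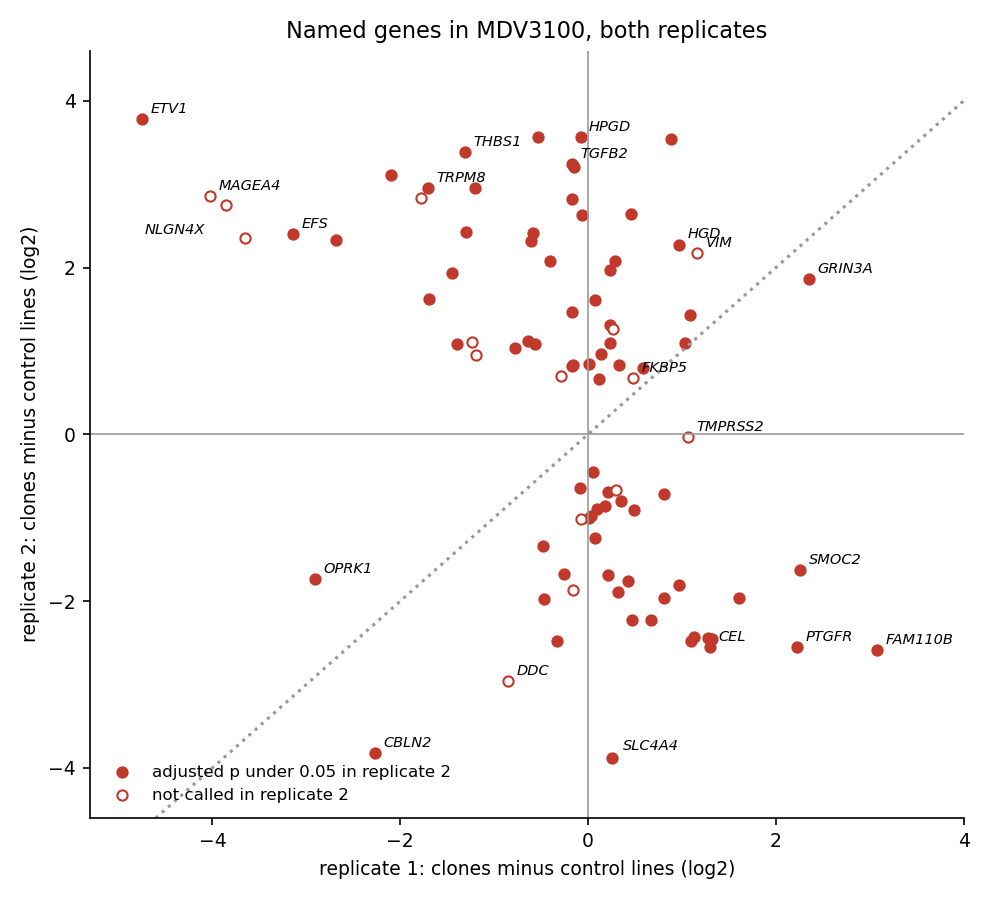
Difference of clones minus control lines (log2) under MDV3100 in replicate 2 (vertical axis) against replicate 1 (horizontal axis), for the 91 genes followed through the alternatives. Filled points have an adjusted p under 0.05 in replicate 2, and the dotted line marks equal differences. ETV1 lies at 3.78 and -4.75, and most called genes lie in the quadrants of opposite sign.

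The clones differed among themselves, with the largest SD for genes in which clone 1 stood alone. EPHA3, an ephrin receptor kinase, had 3.4 in clone 1 and 1057 to 1598 in the other clones, against 292, 14.9 and 114 in control lines. LPAR3, a receptor for lysophosphatidic acid, had 7.0 in clone 1 and 799.5 to 1624 in the others, against 465, 498 and 73.4 in control lines. DSC3, a desmosomal cadherin, split the clones further, with 1.8 in clone 1, 88.7 in clone 14 and 76.7 in clone 24, and 579, 884, 575 and 714 in clones 10, 15, 19 and 9, against 101, 36 and 0.2 in control lines. These values are given as a description with no test.

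Single lines carried genes of their own, chosen by the gap between their array and the other 9 and given with no test. Control 2 had 276 for GUCY1A2 and 157 for GUCY1B1, subunits of soluble guanylate cyclase, against at most 38.9 and 34.5 in the other 9 arrays. It also had only 24.3 for ADGRG6, an adhesion receptor with 1283 to 2958 elsewhere. In DMSO the control 2 array had the same features, with 288 for GUCY1A2 and 25.5 for ADGRG6. Control 3 had 70.2 for TMEM205, against 627 to 896 in the other arrays, and 141 for UNC13C, a synaptic vesicle protein. Clone 1 had 14.5 for PLAAT3, a phospholipase, where the other arrays had 135 to 379, and 55.2 for PRSS16, a thymic protease, where they had 319 to 554. Both were low in the clone 1 DMSO array too, at 11.1 and 37.3. Clone 10 led in IL32, a cytokine, with 172, and clone 24 in the non-coding RNA gene PSLNR with 481, but in DMSO neither clone was the highest array for that gene.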

How the data were processed

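Each sample was 1 Affymetrix array of RNA amplified with the NuGEN Ovation kit, per the labels' protocols. The deposited intensity values are linear signals, for which the submitters' processing notes name MAS5 (version not given in the sources used here), and the arrays have a 2% trimmed mean of 150. All 40 value columns matched sample titles, and 0 columns were left unmapped. Probe sets whose mean log2(signal + 16) over the 40 arrays was at or above the median (4.81, a signal of 12.1) were kept, 27338 of 54675. The brightest probe set that names 1 gene stood for each of 11853 genes. The platform annotation names 1 gene for 41097 probe sets, several for 1801 and none for 11777. Limma 3.58.1 in R 4.3.3 (lmFit, eBayes) tested clones against control lines, with 1 array per line and Benjamini-Hochberg adjustment over all genes. The number of arrays limits the precision. The pairing of replicate numbers was checked by correlating each array with the replicate 1 array of its line, with r from -0.5 to 0.12.

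The named genes were taken from the 12 highest and 12 lowest called genes whose groups do not overlap, 6 of each in the fit without clone 1 and control 2, a fixed set of androgen and steroid genes, up to 4 members with the largest difference in each of 32 lists (480 members, 370 measured), the genes whose array in 1 line lies furthest from the other 9, the 8 genes with the largest SD over clones, and the 5 leading genes of the other tests in each direction. Not every candidate is named or was among the 91 genes followed, and no rule fixed the choice among candidates. It leaned to called genes, with 76 of the 91 called. PMAIP1 (1.32) and PCNA (0.87) are examples of large list members that were not called and are not described above. A gene named outside this rule, such as S100A4, ITGA5, KLK4, STEAP1, ZBTB16, BNIP3, ATF3, DDIT4, PKIB, AMIGO2 or IL1RN, was chosen after its values were seen. The comparison, the rule and the lists were chosen with earlier results of these data known. The alternatives tried were the pseudocount, scaling, filter, probe set rule, variance trend, left-out lines and the use of replicate 1.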

Additional observations from a re-analysis of the deposited data

Results flagged for a closer look

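For 39 of the 91 genes followed, 1 clone lay far from the other 6 on the log2 scale by Dixon's test (95% level), and in all 39 it was clone 1. Chance alone flags about 1 group in 20 by this test, and part of these genes were chosen in a fit without clone 1. Over all 11853 genes, clone 1 was the far array for 1239 (10.5%), and each of the other clones for 9 to 64. Values are signals of the clone 1 array under MDV3100 in replicate 2.

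Clone 1 was far below the other clones for 26 genes. These were TGFB2 (4.9), SNAI2 (21.5), MINAR1 (26.1), NFKBIZ (40.9), HPGD (1.3), PHLDB2 (5.8), RGS2 (2.6), THBS1 (0.8), FKBP5 (1536.6), ST6GALNAC1 (5.3), WWTR1 (6.6), UGT2B15 (830.6) and ETV1 (702.0). The others were SOX9 (205.8), TM4SF1 (220.0), UGT2B28 (103.6), VIM (26.2), NLGN4X (9.7), RFC4 (758.3), POLE2 (199.0), B2M (1846.7), ANKRD37 (218.8), CREB3L4 (737.0), MAGEA4 (0.3), H2AJ (15.2) and EPHA3 (3.4).

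It was far above them for 13 genes, namely DPYSL5 (152.6), SCD5 (155.9), GXYLT2 (72.0), APOBEC3F (59.9), CBLN2 (55.4), CYP1A2 (276.1), MID1 (302.9), COL6A1 (434.1), CSMD1 (569.6), ERBB2 (612.4), TCF7L2 (516.1), BCL2 (87.6) and EGLN3 (62.2). The cause was not tested.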

How the results depend on the processing

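For the comparison under MDV3100 in replicate 2, with 2326 genes called, other pseudocounts, quantile normalization, other filters, averaging of probe sets and an intensity trend gave 1611 to 2694 calls, and the median difference of all genes stayed between -0.08 and -0.05. Leaving out 1 line gave 47 (without control 3) to 4737 genes (without clone 1), and 3508 were called without clone 1 and control 2. With clones 14 and 24 averaged, an alternative added after the data were seen, it was 991. Both replicates with a replicate block gave 441 genes, 263 higher and 178 lower (59.6% higher, against 36.7% in replicate 2 alone). That fit had no term for the line and took the arrays of a line as independent. Both replicates averaged per line gave 1062 (557 higher and 505 lower). By the labels, arrays of the same replicate share only its number. Their actin 3' to 5' ratio under MDV3100 was 3.68 to 6.59 in replicate 1 and 2.59 to 3.95 in replicate 2, and its part in these counts was not tested. Replicate 1 gave 89 to 3004 genes on leaving out 1 line and 80 without clone 1 and control 2. DMSO gave 2 to 3877 and 2205, the drug response 0 to 88 and 142, and the change between replicates 9 to 3774 and 1362. A pseudocount of 64 kept these 4 counts within 1.5 times. TMPRSS2, at -0.04 and never called, was at 0.0935 with probe sets averaged, 0.32 without clone 1 and control 2, and -0.47 to 0.39 on leaving out 1 line. Within replicate 2, none of the other 90 genes followed changed direction in any setting in which it was fitted, with 51 of the 91 left by the stricter filter and 90 by a pseudocount of 1. In replicate 1, 53 of the 76 called genes had the opposite direction. Single genes were not followed in the fits with the replicate block or with averaged arrays. Dim genes near the pseudocount have understated differences. The causes of these shifts were not tested. Fits with fewer lines also have fewer degrees of freedom, and the part of this in the counts was not tested.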
